A study of Mus musculus with 2 samples.

Results

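The genes described here encode the variable (V) and constant (C) parts of the alpha and beta chains of the T cell receptor. They are all genes whose name begins with Trav, Trac, Trbv or Trbc and that held at least 10 unique molecular identifiers (UMIs, 1 for each captured transcript) summed over all cell barcodes. Of 32285 genes measured, 166 had such a name and 81 reached the minimum: 56 of 128 Trav genes, 22 of 35 Trbv genes, and the constant genes Trac, Trbc1 and Trbc2. Another 58 genes held no UMI and 27 held 1 to 9. At the edge of the rule, Trbv30 and Trav3-1 held 10 UMIs and Trav7d-2 held 11, whereas Trav13n-3 held 9 and Trav12-1 and Trav7d-4 held 8 each.

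The study sequenced single cells from the thymus of 2 C57BL/6 mice, 1 with the Foxp3eGFP reporter allele (Foxp3eGFP) and 1 with the reporter and without lymphotoxin alpha (Foxp3eGFPxLta-/-, called Lta-/- here). Both mice carried the reporter, so the control is Foxp3eGFP and not an unmodified mouse, and their ages were not given in the sources used here. After depletion of CD8+ and CD11c+ cells, live CD4+ CD8- CCR6- CD3e+ cells that were positive for CD25, for the reporter or for both were sorted, 20000 per genotype, marked with 1 hashtag antibody per mouse and loaded as 1 pool on 1 10x Genomics Single Cell 3' v3.1 capture aimed at 10000 cells. With 1 mouse per genotype there is no replicate: every interval is an exact 95% interval that covers counting error only, no p-value was computed, and mouse and genotype cannot be told apart.

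A developing T cell builds each receptor gene by joining 1 V segment to downstream segments, so that a finished beta transcript holds 1 Trbv segment, and a finished alpha transcript 1 Trav segment, spliced to a constant gene. The beta locus is normally completed on 1 chromosome only, whereas alpha genes often rearrange on both chromosomes. In the thymus the finished receptor decides whether a CD4 cell is kept, is deleted or turns to the regulatory (Treg) lineage, which is marked by the transcription factor Foxp3 and by the interleukin-2 receptor chain CD25, encoded by Il2ra. A 3' library reads transcripts near their poly(A) end, at the constant exons, and reaches the V segment at the other end only in part.

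After filtering, 4638 of 4798 barcodes were kept. Hashtag counts assigned 2244 cells to the Lta-/- mouse (median 5395 UMIs per cell) and 2209 to the Foxp3eGFP mouse (median 5547), and 185 cells carried both hashtags (median 10532), which marks droplets with cells of both mice. Droplets with 2 cells of the same mouse cannot be seen this way and remain among the 4453 assigned cells, since no doublet caller was run. The targeted gene Lta held 72 UMIs in the Lta-/- cells and 509 in the Foxp3eGFP cells. Cd3e was detected in 94.7% and 95.4% of the cells and Cd8a in 2.85% and 2.58%, as the gate implies, but Foxp3 was detected in 18.5% and 21.3% only and Il2ra in 19.6% and 24.2%. The cells are therefore described by the transcripts detected: 2982 had neither, 497 Foxp3 only, 584 Il2ra only and 390 both. A cell without a UMI of either gene may still express it, so these classes are ranges of detection and not cell types.

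V segments were detected in a minority of cells. A Trbv UMI was present in 1689 of 4453 assigned cells (37.9%, interval 36.5 to 39.4%), a Trav UMI in 1501 (33.7%, 32.3 to 35.1%), and both in 646 (14.5%, 13.5 to 15.6%). By contrast, Trbc2 was detected in 98.6% of the cells, Trac in 92.5% and Trbc1 in 65.8%. The 22 Trbv genes together held 3031 UMIs over all barcodes and the 56 Trav genes 2757, against 116691 for the pair of beta constant genes and 26353 for Trac. Of the cells with a Trbv UMI, 62.5% had only 1, and of those with a Trav UMI 63.3%, so the V call of most cells rests on a single molecule.

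Detection followed depth. When the cells were ranked by UMIs into 4 groups of equal size, 29.3% of the shallowest group (median 3494 UMIs) had a Trbv UMI, followed by 36.5%, 38.5% and 47.4% (median 9794 in the deepest). When every cell was thinned to 3000 UMIs, leaving out shallower cells, 23.2% of 4144 cells kept a Trbv UMI and 20.6% a Trav UMI. The genotypes gave similar values: 38.1% of Lta-/- cells (36.1 to 40.2%) and 37.8% of Foxp3eGFP cells (35.7 to 39.8%) had a Trbv UMI, and 33.5% (31.6 to 35.5%) and 33.9% (31.9 to 35.9%) a Trav UMI. Thinning kept 2082 Lta-/- cells and 2062 Foxp3eGFP cells, in which the Trbv shares were 23.5% and 22.9%. For cells that should lack these genes, 13 of the kept cells held at least 5 UMIs of B cell, plasma cell or myeloid markers and no UMI of a Cd3 gene (median 8071 UMIs). None of them had a Trbv, Trav or Trac UMI, which allows a share of up to 24.7%, but 6 of the 13 had Trbc1 (73 UMIs in all) and 6 had Trbc2 (124 UMIs). These cells were thus not free of receptor transcripts, and the background of the V genes could be bounded only loosely.

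Trav detection fell across the classes while Trbv detection changed less. Trav was detected in 35.9% of cells with neither gate transcript (34.1 to 37.6%), 30.2% with Foxp3 only, 29.1% with Il2ra only and 28.7% with both (24.3 to 33.5%). At 3000 UMIs per cell, with the classes kept from the deposited counts, the Trav shares were 22.1% (20.6 to 23.7%), 19.2% (15.7 to 23.1%), 16.8% (13.8 to 20.2%) and 16.8% (13.2 to 21.0%), from 2758, 453, 553 and 380 cells. The Trbv shares were 39.3%, 36.4%, 32.9% and 37.2% as deposited, and 23.7%, 24.9%, 21.5% and 20.5% after thinning. As deposited, the Trbv intervals of neither (37.5 to 41.05%) and Il2ra only (29.1 to 36.85%) did not overlap. At equal depth the interval for neither did not overlap that for Il2ra only in Trav, whereas all 4 Trbv intervals overlapped.

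Usage was counted in cells with exactly 1 detected segment of a chain, 1485 for Trbv and 1236 for Trav. Cells and not UMIs were counted because several UMIs of a cell can come from 1 rearrangement. Cells with at least 2 detected segments, 204 for Trbv and 265 for Trav, were left out. Trbv2 led the beta genes. It lies on chromosome 6 at 41047556 to 41047995 in GRCm38.p6 and was the segment of 309 cells (20.8%, 18.8 to 23.0%). Trbv13-2 followed with 9.70% (8.24 to 11.3%), Trbv3 with 9.23%, Trbv19 with 7.61%, Trbv20 with 6.06%, Trbv31 with 5.99%, Trbv13-1 with 5.72%, Trbv12-2 with 5.46%, Trbv1 with 5.39%, Trbv16 with 4.38%, Trbv15 with 4.04% and Trbv26 with 3.17%. Neighbours in this order after Trbv2 had overlapping intervals. Trbv31, the only Trbv gene downstream of the constant genes and joined by inversion, ranked sixth. The leading 5 Trbv genes accounted for 53.4% of the single-Trbv cells and the leading 10 for 80.3%.

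Trbv2 also stood apart in the number of molecules per cell. Cells with a Trbv2 UMI held 2.28 Trbv2 UMIs on average and up to 16, whereas the averages of the other 21 Trbv members ran from 1.05 for Trbv5 to 1.56 for Trbv29. Trbv2 therefore took 30.3% of all Trbv UMIs, against its 20.8% of single-Trbv cells. More UMIs per cell also raise the chance that a segment is detected at all, so the shares compare segments as detected and not as rearranged.

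Trav usage was spread over more genes. The alpha locus of C57BL/6 holds a duplicated stretch, and its copies carry a d or n in their names. Trav14d-3-dv8, whose dv marks a segment that delta chains can also use, led with 164 cells (13.3%, 11.4 to 15.3%). It lies on chromosome 14 at 53078547 to 53079045 in GRCm38.p6 and was followed by Trav6-7-dv9 with 7.04%, Trav3-3 with 5.10%, Trav16n and Trav14-1 with 4.69% each, Trav14-2 with 4.29%, Trav13-1 with 3.07%, Trav4-4-dv10 with 2.67%, Trav14-3 with 2.43%, Trav5-4 and Trav16 with 2.27% each and Trav10 with 1.94%. The leading 5 Trav genes made up 34.8% of single-Trav cells and the leading 10 made up 49.5%.

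Copies of a subgroup are nearly identical, and reads that match several copies cannot be placed with certainty, so single Trav copies are uncertain. Only 9 of 39 d copies and 8 of 34 n copies reached 10 UMIs, against 39 of 55 unmarked genes, and the d and n copies held 17.1% and 12.4% of the Trav UMIs. With each subgroup counted as 1 segment, Trav14 was the segment of 347 of 1263 cells (27.5%, 25.03 to 30.03%), Trav6 of 12.5%, Trav16 of 7.84% and Trav7 of 6.97%. Among beta genes counted this way, the Trbv13 subgroup (18.4%, 16.4 to 20.4%) came close to Trbv2 (20.6%, 18.6 to 22.8%), and their intervals overlapped.

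Position along the alpha locus was uneven. Of the stretch on chromosome 14 from Trav1 (52427967) to the start of Trac (54220521), cut into 4 equal lengths, the third, which holds 45 Trav genes and 34 of the members, was used by 68.5% of single-Trav cells (65.8 to 71.0%). The second, with 49 genes of which 7 reached 10 UMIs, was used by 18.9%, and those at the far and near ends by 7.93% and 4.77%. The second length was used by 22.0% of the single-Trav cells of the Lta-/- mouse (18.8 to 25.4%) and 15.7% of those of the Foxp3eGFP mouse (12.9 to 18.8%). Its genes are d and n copies, whose single calls are uncertain, and its usage rested mainly on 1 segment. Trav14d-3-dv8 was the segment of 164 of the 233 single-Trav cells of this length. In all, it was detected in 139 Lta-/- and 103 Foxp3eGFP cells. Only members could be counted as used, and usage by position was not separated from their number in each length or from the placing of reads among copies.

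**Figure D1:**
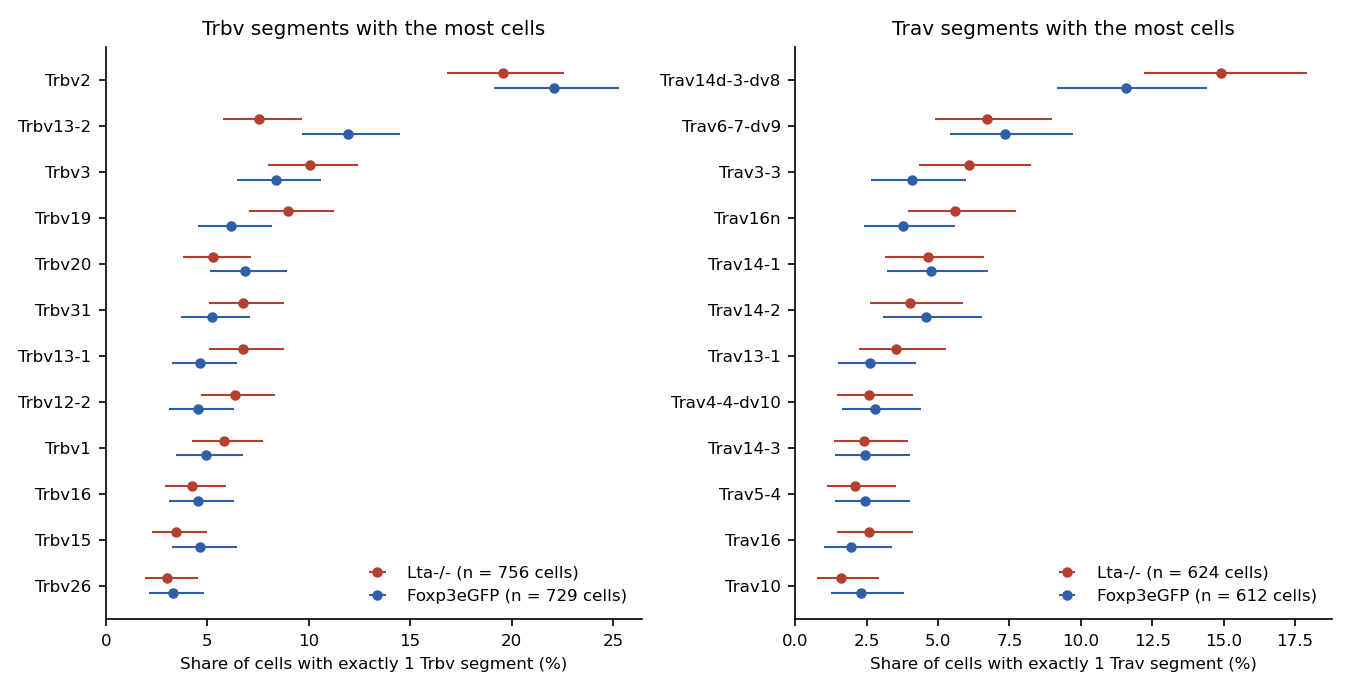
Share of cells with exactly 1 detected Trbv (left) or Trav (right) segment that carried each of the 12 segments with the most cells, in percent, for the Lta-/- mouse (red) and the Foxp3eGFP mouse (blue). Points are shares and bars exact 95% intervals for counting error. Trbv2 lies far to the right of every other Trbv segment in both mice, and Trbv13-2 is the segment for which the blue point lies farthest to the right of the red one.

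The first comparison asked whether usage differed between the genotypes. For each gene with at least 50 UMIs, the UMIs per 1000000 UMIs of the group (CPM) were set against each other as a log2 ratio, Lta-/- over Foxp3eGFP, and a gene was called at a ratio of at least 1.5 either way, a rule of size and not a test. Several UMIs of a cell can share 1 rearrangement, so the intervals of these ratios are too narrow for V segments. Of the 81 genes 29 could be compared: 14 Trbv, 12 Trav and the 3 constant genes. Of these, 5 were higher in the Lta-/- cells and 0 lower, beside 2.41% of all 10709 genes called higher and 2.83% called lower. Among genes with 50 to 1000 UMIs, the range of the V segments compared, 3.76% were called higher and 3.79% lower. The median log2 ratio was 0.42 for the 14 Trbv genes and 0.22 for the 12 Trav genes, against 0.00 over all genes. The summed Trbv UMIs, at 100.3 CPM against 92.7 CPM, gave a log2 ratio of 0.11 (0.0056 to 0.22) and the summed Trav UMIs 0.05 (-0.06 to 0.17).

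Trbv19 differed most. It held 116 UMIs in 83 Lta-/- cells and 73 UMIs in 59 Foxp3eGFP cells, a log2 ratio of 0.76 (0.33 to 1.21). As a share of single-Trbv cells it was 8.995% (7.05 to 11.3%) in Lta-/- and 6.17% (4.54 to 8.17%) in Foxp3eGFP, and these intervals overlapped. Trbv13-3 followed at 0.74 (-0.02 to 1.52, 39 against 25 UMIs), then Trbv13-1 at 0.63 (0.11 to 1.17, 77 against 53 UMIs), Trav16n at 0.60 (0.04 to 1.16, 68 against 48 UMIs) and Trbv1 at 0.59 (0.05 to 1.14, 72 against 51 UMIs). Counted in cells in place of UMIs, only Trbv13-3 (0.63) and Trav16n (0.63) kept a ratio of 1.5.

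In the other direction no single member was called. Trbv13-2 was lowest at -0.43 (-0.82 to -0.05), with 97 UMIs in Lta-/- and 140 in Foxp3eGFP. It was the segment of 7.54% (5.76 to 9.66%) of single-Trbv cells in the Lta-/- mouse and 11.9% (9.67 to 14.5%) in the Foxp3eGFP mouse, with intervals that just failed to overlap. Trbv2 was close to equal, with 403 and 447 UMIs and a log2 ratio of -0.05 (-0.25 to 0.14). Of the alpha subgroups, summed over their members, Trav12 (26 against 49 UMIs, -0.82, -1.57 to -0.10) and Trav9 (50 against 90 UMIs, -0.75, -1.28 to -0.24) were lower in Lta-/- by the same rule. Trav14 stood at 0.32 (0.09 to 0.55). The segment repertoires of 2 mice can differ without any effect of genotype, and 1 mouse per genotype gives no measure of that spread.

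Genes of other cell types also differed between these groups. B and plasma cell markers summed to 101.0 CPM in Lta-/- and 509.7 CPM in Foxp3eGFP, with 3 of 6 genes lower in Lta-/-. The share of marker-positive cells did not follow this sum. At least 5 B, plasma or myeloid marker UMIs were held by 5.26% of Lta-/- cells (4.37 to 6.26%) and 4.30% of Foxp3eGFP cells (3.49 to 5.23%). All 5 proliferation genes were lower in Lta-/- (617.1 against 1028 CPM summed), as were 4 of 5 genes of the gamma-delta receptor list (42.8 against 85.7 CPM). Trbv19 stood at 0.79 without the cells that held a Mki67 UMI and at 0.72 without those that held B, plasma or myeloid UMIs. Of the other 4 called segments, Trbv13-1 stood at 0.34, Trbv1 at 0.49 and Trav16n at 0.57 without Mki67 cells, all below the call, which left Trbv13-3 at 0.70. Without the B, plasma and myeloid cells Trbv13-1 alone was below it, at 0.50.

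The second comparison set the 887 cells with a Foxp3 UMI against the 3566 without. The Trav14 subgroup was lower with Foxp3. Trav14 was the segment of 45 of 227 single-Trav cells with a Foxp3 UMI (19.8%, 14.8 to 25.6%) and of 302 of 1036 without (29.2%, 26.4 to 32.0%), and the intervals did not overlap. The subgroup's UMIs gave a log2 ratio of -0.76 (-1.14 to -0.41; 14.01 against 23.8 CPM), and relative to all Trav UMIs -0.53 (-0.90 to -0.18). Both mice showed the lower share, but not to the same degree. In the Foxp3eGFP mouse it was 15% (9.14 to 22.7%) against 28.7% (24.8 to 32.9%), and in the Lta-/- mouse 25.2% (17.3 to 34.6%) against 29.6% (25.8 to 33.7%), where the intervals overlapped. The difference between the mice was not tested. When a cell needed 2 Foxp3 UMIs to count, the share was 14.4%.

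Across the 29 comparable members, 2 were higher and 5 lower with Foxp3, beside 6.42% of 10707 genes called higher and 12% called lower. Among genes with 50 to 1000 UMIs the shares were 8% and 15.5%, so the counts of members lie close to those of other genes with similar UMIs. The lower segments were Trav13-1 (7 against 81 UMIs, -1.34, -2.70 to -0.23), Trav14-1 (8 against 92, -1.33, -2.58 to -0.29), Trav14d-3-dv8 (30 against 261, -0.93, -1.52 to -0.38), Trav14-3 (10 against 82, -0.84, -1.95 to 0.11) and Trbv15 (15 against 107, -0.64, -1.53 to 0.15). Of the 3 Trav14 copies among them, Trav14-1 was lower chiefly in the Foxp3eGFP mouse (-2.59) and less so in the Lta-/- mouse (-0.44). Trav14-3 stood at -1.59 and -0.33 in the same mice, and Trav14d-3-dv8 at -1.24 and -0.68. Trbv15 lost the call in the Foxp3eGFP mouse alone (-0.56), counted in cells (-0.50) and without Mki67 cells (-0.52). Trav14-2, a further Trav14 copy, stood at 0.04 (-0.74 to 0.75).

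The higher segments were Trbv16 (28 against 74 UMIs, 0.79, 0.11 to 1.44) and Trav16 (14 against 41, 0.64, -0.35 to 1.55). Trbv16 stood at 0.47 in the Lta-/- mouse and 1.21 in the Foxp3eGFP mouse, and at 0.54 when counted in cells, below the call. Trav16 stood at 0.90 and 0.37 in these mice, and at 0.41 without Mki67 cells, also below it. Trbv16 was the segment of 6.60% (4.02 to 10.1%) of single-Trbv cells with Foxp3 and 3.84% (2.83 to 5.09%) without. The Trbv12 subgroup, summed, was also higher at 0.60 (0.07 to 1.10), and was the segment of 11.3% (7.91 to 15.5%) of single-Trbv cells with Foxp3 against 6.47% (5.15 to 8.01%) without. It was higher in each mouse, at 11.9% against 7.09% in Lta-/- and 10.8% against 5.79% in Foxp3eGFP, with overlapping intervals in both. Trbv2 was the segment of 20.8% in either class.

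The third comparison set the 974 cells with an Il2ra UMI against the 3479 without. Here the alpha segments were lower together: all 12 comparable Trav genes had a negative log2 ratio, with a median of -0.81, and the summed Trav UMIs stood at 64.0 CPM against 93.1 CPM, a log2 ratio of -0.54 (-0.70 to -0.39). The summed Trbv UMIs stood at 84.1 CPM against 99.95 CPM, -0.25 (-0.39 to -0.11). Across the 29 members 0 were higher and 8 lower, beside 5.31% of 10707 genes called higher and 8.33% called lower, or 7.03% and 11.6% of genes with 50 to 1000 UMIs. By the same measure Foxp3 gave -0.23 (-0.39 to -0.08) for summed Trav and 0.04 (-0.10 to 0.18) for summed Trbv.

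The 8 lower segments were 1 Trbv and 7 Trav genes. Trbv13-3 had 5 UMIs with Il2ra and 59 without (-1.77, -3.44 to -0.47), and was lower in both mice (-1.55 in Lta-/- and -1.94 in Foxp3eGFP). Trav10 followed at -1.61 (-3.30 to -0.30), Trav14-1 at -1.38 (-2.49 to -0.43), Trav16 at -1.24 (-2.75 to -0.01), Trav4-4-dv10 at -1.15 (-2.34 to -0.14), Trav14d-3-dv8 at -0.90 (-1.43 to -0.41), Trav6-7-dv9 at -0.86 (-1.51 to -0.27) and Trav16n at -0.75 (-1.59 to 0.00). In the Lta-/- mouse alone, Trav10 (-0.42, against -3.38 in Foxp3eGFP), Trav4-4-dv10 (-0.50 against -1.74) and Trav14d-3-dv8 (-0.55 against -1.27) were not called. Counted in cells, Trav6-7-dv9 (-0.39) and Trav16n (-0.49) were not called. Trbv13-3, Trav14-1 and Trav16 passed the ratio of 1.5 in each mouse and in cells, but with wide intervals. Those of Trbv13-3 and Trav16 spanned both directions in each mouse, as did that of Trav14-1 in the Lta-/- mouse (-3.3 to 0.11). Trav16 counted in cells also spanned both directions (-2.21 to 0.60). The largest positive ratio was 0.36 (-0.18 to 0.89), for Trbv20. Measured against the UMIs of the same chain, which takes out the lower level of all Trav genes, 5 segments were lower and 1 was higher, and the Trav14 subgroup stood at -0.21 (-0.54 to 0.11) in place of -0.75. Its share of single-Trav cells was 22.8% (17.7 to 28.5%) with Il2ra and 28.6% (25.9 to 31.5%) without, with overlapping intervals.

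Proliferation genes moved with both comparisons: 5 of 5 were lower with Foxp3 (291.0 against 946.9 CPM summed) and 5 of 5 with Il2ra (364.5 against 963.6 CPM). A Mki67 UMI was present in 4.96% of cells with Foxp3 and 4.83% with Il2ra, but in 10.7% of cells with neither. Ccr9, a chemokine receptor of recently selected thymocytes, was detected in 28.9% of cells with neither gate transcript and 11.8% with both, and V detection was high in Ccr9 cells (45.6% with a Trbv UMI, 27.6% after thinning). Without the Mki67 cells the Trav14 subgroup stood at -0.77 with Foxp3. The part of Ccr9 in the lower Trav level was not tested.

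The 4 classes separate the transcripts. Against cells with neither, which all 3 ratios share, cells with Foxp3 only had 3 of 27 comparable members higher and 4 lower, beside 7.4% of 10340 genes called higher and 14.1% lower (9.05% and 17% of those with 50 to 1000 UMIs). Cells with Il2ra only had 0 of 26 higher and 12 lower, beside 6.26% and 8.88% of 10419 genes (7.99% and 11.7% of those with 50 to 1000 UMIs). Cells with both had 3 of 26 higher and 9 lower, beside 7.45% and 14.3% of 10335 genes (9.07% and 17.7%). The summed Trav UMIs stood at 93.9 CPM in neither, 87.5 in Foxp3 only, 64.4 in Il2ra only and 63.4 in both, so the lower alpha level went with Il2ra whether or not Foxp3 was detected. The summed Trbv UMIs stood at 98.7, 109.2, 82.2 and 87.1 CPM. Trav14 was the segment of 29.9% (26.9 to 33.1%) of single-Trav cells with neither, 19.5% (13.1 to 27.5%) with Foxp3 only, 24.5% (17.8 to 32.3%) with Il2ra only and 20.2% (12.8 to 29.5%) with both. Trav13-1 held 73 UMIs in cells with neither and 0 in cells with Foxp3 only, so all its UMIs in cells with Foxp3 lay in the class with both. Trbv2 went in different directions: its CPM was 29.5 in neither, 40.0 in Foxp3 only, 27.4 in Il2ra only and 18.9 in both, and its share of cells counted by subgroup 19.9%, 25.3%, 25.8% and 14.6%, with overlapping intervals.

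**Figure D2:**
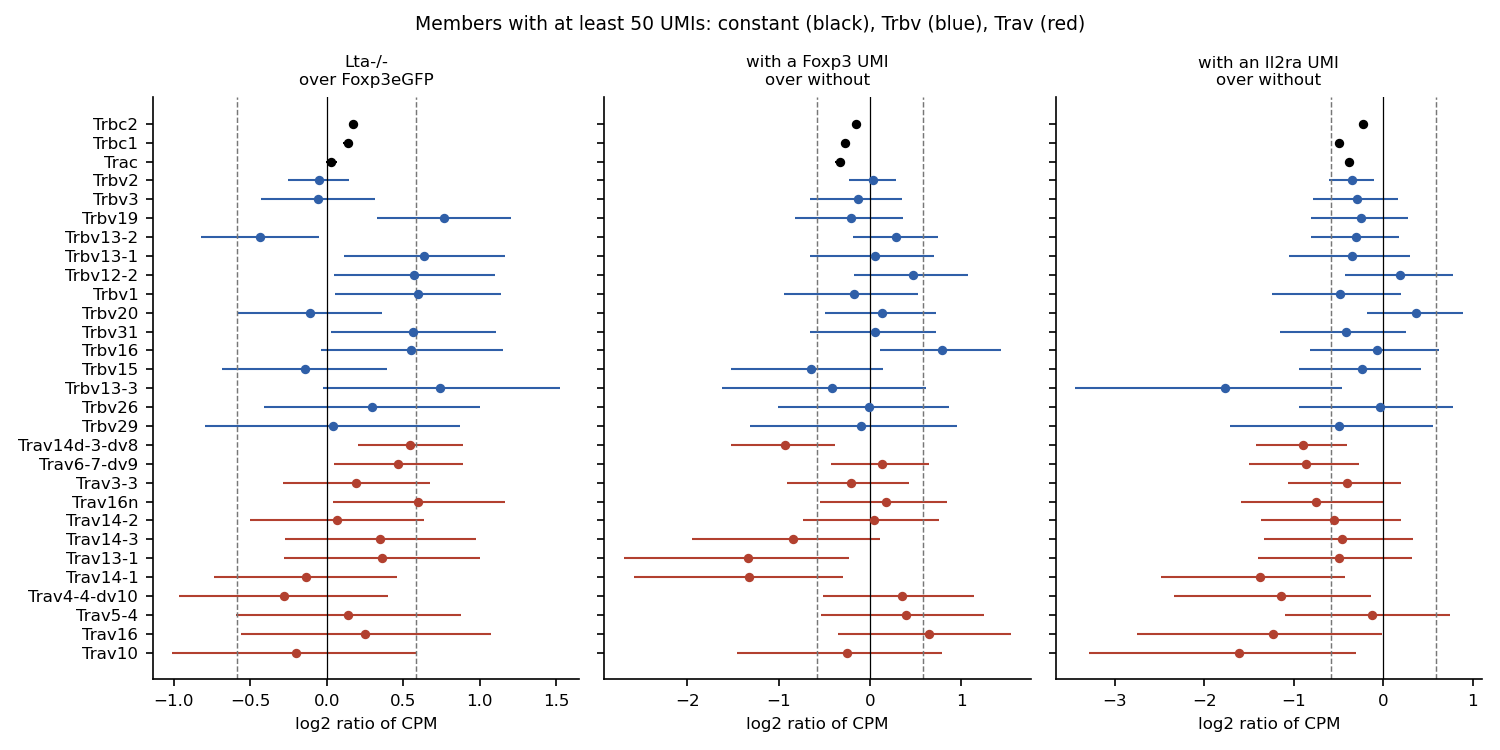
Log2 ratio of CPM for the 29 members with at least 50 UMIs in the genotype comparison (left), with against without a Foxp3 UMI (middle) and with against without an Il2ra UMI (right); constant genes are black, Trbv blue and Trav red. Points are ratios, bars exact 95% intervals for counting error, and dashed lines mark a ratio of 1.5 either way. In the right panel all 12 Trav points lie left of 0, while in the left panel 5 V segments lie right of the upper line and 0 left of the lower one.

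At least 2 different Trbv segments were detected in 204 of 4453 assigned cells (4.58%, 3.99 to 5.24%). The share was 4.41% in Lta-/- and 4.75% in Foxp3eGFP, and ran from 4.23% to 4.73% over the 4 Foxp3 and Il2ra classes, so neither the genotypes nor the classes differed beyond counting error. Only cells with at least 2 Trbv UMIs can show 2 segments. Of those 633 cells 32.2% (28.6 to 36.0%) did, against 54.1% (40.9 to 66.9%) of 61 such cells with both hashtags. Because droplets with both hashtags were deeper, cells with exactly 2 Trbv UMIs were also compared: 30.7% (26.2 to 35.5%) of 394 assigned cells and 36.1% (20.8 to 53.8%) of 36 both-hashtag cells had 2 segments, with overlapping intervals. Over all cells the both-hashtag droplets showed 2 Trbv segments in 17.8%, or 2.21% after thinning, against 1.52% of assigned cells.

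Second segments rested on few molecules. Only 12 assigned cells (0.270%) had 2 Trbv segments with at least 2 UMIs each. The most frequent pair was Trbv2 with Trbv3, seen in 27 cells, 15 of the Lta-/- mouse and 12 of the Foxp3eGFP mouse. These genes are neighbours, with 398 bases between the end of Trbv2 and the start of Trbv3. A Trbv2 UMI was present in 14.8% (9.95 to 20.7%) of 183 cells with Trbv3 but in 3.09% (2.19 to 4.24%) of 1197 cells with another Trbv segment and no Trbv3. The difference was present in both mice, at 15.5% against 2.46% in Lta-/- and 13.95% against 3.75% in Foxp3eGFP. The 3' library cannot tell whether both segments stood in 1 transcript or in 2.

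The next pairs were Trbv12-2 with Trbv13-2 and Trbv13-2 with Trbv13-3, in 11 cells each. Trbv13-2 with Trbv2 was found in 9 cells, with Trbv15 in 8 and with Trbv19 in 7. Trbv12-2 with Trbv15 was found in 6 cells, Trbv12-2 with Trbv2 and Trbv19 with Trbv2 in 5 each, and Trbv12-2 with Trbv19 in 4. Pairs of neighbouring genes were 44 of 233 pairs (18.9%, 14.1 to 24.5%) in assigned cells and 10 of 47 (21.3%, 10.7 to 35.7%) in both-hashtag droplets, a share that did not differ beyond counting error. By segment, a second Trbv was seen in 30.8% of cells with Trbv13-2, 30.8% with Trbv12-2 and 31.0% with Trbv15, but in 17.2% of cells with Trbv2 and 9.57% with Trbv13-1.

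Trav segments were doubled slightly more often. At least 2 were detected in 265 assigned cells (5.95%, 5.27 to 6.69%), and in 48.1% (43.9 to 52.4%) of the 551 cells with at least 2 Trav UMIs, against 70.6% of 51 both-hashtag cells. With exactly 2 Trav UMIs the shares were 44.3% (38.8 to 49.9%) of 325 assigned cells and 75.9% (56.5 to 89.7%) of 29 both-hashtag cells, and these intervals did not overlap. They did overlap with each subgroup counted as 1 segment, at 39.7% (34.3 to 45.2%) and 62.1% (42.3 to 79.3%), and after thinning, at 37.7% (29.4 to 46.6%) and 50% (18.7 to 81.3%). Counting each subgroup as 1 segment left 238 cells with 2 Trav segments (5.35%). In cells with exactly 2 UMIs the deposited Trav share of 44.3% exceeded the Trbv share of 30.7% (26.2 to 35.5%), in different but overlapping sets of cells. The Trav interval by subgroup overlapped this Trbv interval, in which each segment was counted singly. After thinning, 38.3% (31.45 to 45.6%) of assigned cells with at least 2 Trav UMIs had 2 segments. For Trbv the thinned share was 26.8% (21.3 to 32.95%), and these intervals overlapped. The chains also differ in the number of members, 56 Trav against 22 Trbv, and the part of this in the shares was not tested.

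**Figure D3:**
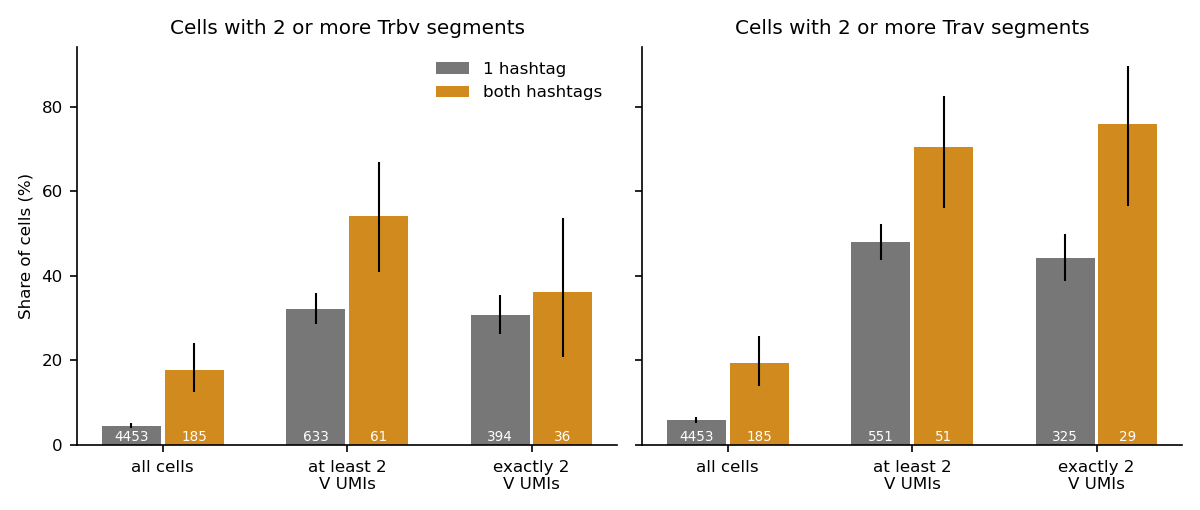
Share of cells with at least 2 different Trbv (left) or Trav (right) segments, in percent, among all cells, cells with at least 2 V UMIs of that chain and cells with exactly 2, for cells with 1 hashtag (grey) and both hashtags (orange). Bars are shares, lines exact 95% intervals and white numbers the cells in each bar. With exactly 2 Trbv UMIs the grey and orange intervals overlap, and with exactly 2 Trav UMIs they do not, unless each subgroup is counted as 1 segment (34.3 to 45.2% and 42.3 to 79.3%, not drawn).

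The constant genes were abundant enough to compare levels. Summed levels were close between the genotypes: Trac 847.9 CPM in Lta-/- and 830.8 in Foxp3eGFP, Trbc1 1259 and 1147, and Trbc2 2699.5 and 2399, log2 ratios of 0.03 (-0.01 to 0.07), 0.13 (0.10 to 0.17) and 0.17 (0.15 to 0.19). None came near the ratio of 1.5. Cd3d, a chain of the CD3 complex that carries the receptor to the surface, stood at 0.13 and Cd3e at 0.02. Of 20 genes of the receptor complex and its proximal signalling, 0 were higher and 1, the pre-T alpha gene Ptcra (14 against 64 UMIs, -2.10), was lower, beside 2.41% of all genes called higher and 2.83% lower.

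All 3 constant genes fell stepwise across the classes. Trac was at 899.9 CPM in cells with neither gate transcript, 772.3 with Foxp3 only, 725.0 with Il2ra only and 611.4 with both. Trbc1 was at 1300.2, 1167, 939.0 and 871.4 CPM, and Trbc2 at 2649, 2489, 2312 and 2151 CPM. Cells with both against neither gave log2 ratios of -0.56 (-0.63 to -0.48) for Trac, -0.58 (-0.64 to -0.51) for Trbc1 and -0.30 (-0.34 to -0.26) for Trbc2. The same order from neither to both held for Trbc1 in each mouse. In the Lta-/- mouse Trac was about equal in the Foxp3 only and Il2ra only cells (752.3 and 753.1 CPM) and Trbc2 slightly higher in Il2ra only (2624) than in Foxp3 only (2591). Both against neither was negative in each mouse: -0.47, -0.56 and -0.23 in Lta-/- and -0.62, -0.58 and -0.34 in Foxp3eGFP for Trac, Trbc1 and Trbc2.

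The CD3 genes were also lower in cells with both gate transcripts, but less evenly: Cd3e at -0.11, Cd3d at -0.28, Cd3g at -0.40 and Cd247, the zeta chain, at -0.43. In the Lta-/- mouse Cd3e was at 0.05 (-0.07 to 0.16) where Trac was at -0.47. In the Foxp3eGFP mouse Cd3e was lower, at -0.23 (-0.34 to -0.13), where Trac was at -0.62. Of the 20 receptor and signalling genes, 0 were higher and 3 lower in cells with both (Ptcra, Cd8a and the costimulatory receptor Cd28), near the 14.3% of all genes called lower, and their summed level gave -0.24. With ribosomal and mitochondrial UMIs left out of the total the ratios were -0.49 for Trac, -0.51 for Trbc1 and -0.24 for Trbc2. Without the Mki67 cells they were -0.45, -0.60 and -0.33.

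**Figure D4:**
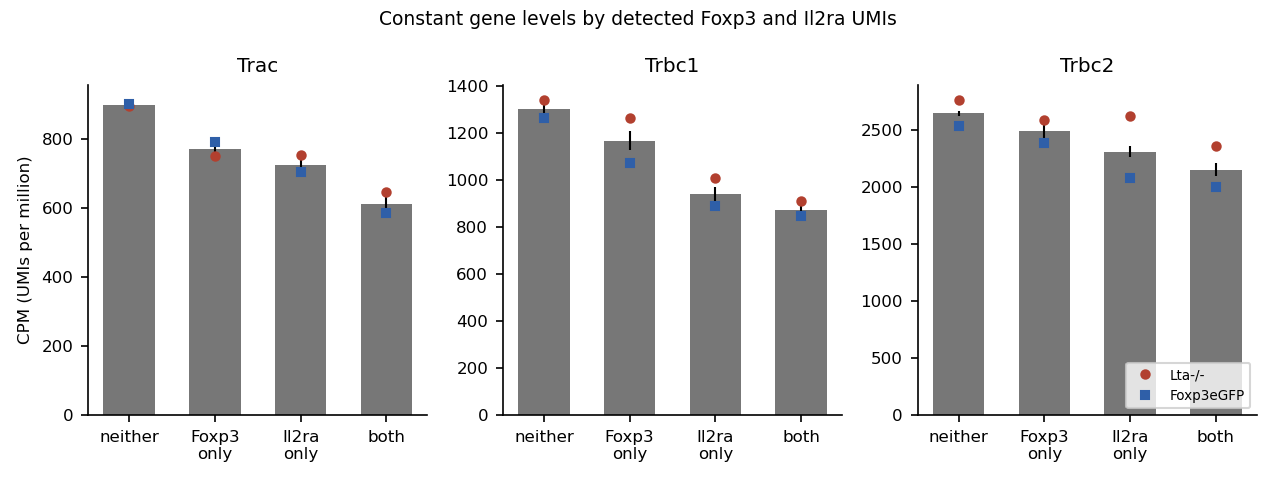
Levels of Trac, Trbc1 and Trbc2 in CPM in cells with neither Foxp3 nor Il2ra UMIs, Foxp3 only, Il2ra only and both. Bars are summed levels over both mice with exact Poisson 95% intervals, red circles the Lta-/- mouse and blue squares the Foxp3eGFP mouse. Each gene is highest in cells with neither and lowest in cells with both, in both mice.

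A beta chain is joined to either Trbc1 or Trbc2, which share most of their coding sequence. Per cell, 64.9% had UMIs of both genes, 33.6% Trbc2 only, 0.921% Trbc1 only and 0.517% neither. Among 3764 cells with at least 10 beta constant UMIs, Trbc1 made up under 5% of them in 31.4% of cells, 5% to under 50% in 39.0% and at least 50% in 29.6%. Only 11 cells had over 95% Trbc1. Both-hashtag droplets gave 21.8%, 59.8% and 18.4%, with more cells in the middle range (52.2 to 67.0% against 37.5 to 40.6%). These droplets were deeper, and at 3000 UMIs per cell the middle range held 51.4% (41.5 to 61.2%) against 40.0% (38.0 to 42.0%), with intervals that overlapped slightly. Trbc2 UMIs were thus found in nearly every cell, also where Trbc1 led. Reads that match both genes can be split between them, and the part of such reads in the middle range was not tested.

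The Trbc1 share was also compared between V segments. Over the 1290 cells with 1 Trbv segment and at least 10 beta constant UMIs, 27.8% (25.3 to 30.3%) had at least 50% Trbc1. For Trbv2 the value was 22.1% (16.8 to 28.1%), and over the 16 Trbv genes with at least 20 such cells it ran from 14.3% (3.05 to 36.3%) for Trbv4 to 42.4% (25.5 to 60.8%) for Trbv13-3, whose intervals overlapped at these small numbers of cells (21 and 33). The median Trbc1 share ran from 5.41% for Trbv4 to 32.1% for Trbv20. Cells with UMIs of only 1 of the beta constant genes held Trbc1 in 8 of 520 single-Trbv cells (1.54%, 0.667 to 3.01%), too few to compare segments.

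**Figure D5:**
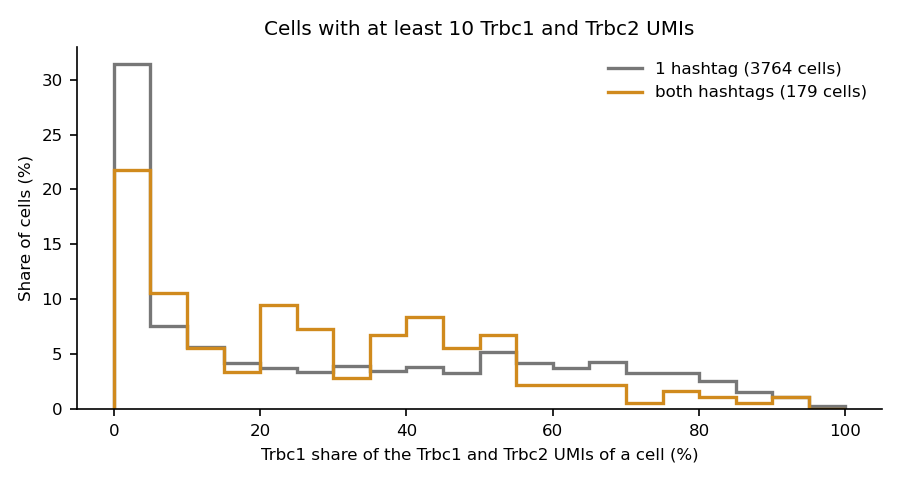
Distribution of the Trbc1 share of the Trbc1 and Trbc2 UMIs of a cell, in percent, for cells with at least 10 such UMIs and 1 hashtag (grey, 3764 cells) or both hashtags (orange, 179 cells). The vertical axis gives the share of cells in steps of 5%. Of the grey cells 31.4% lie under 5% and 39.0% from there to 50%, and of the orange cells 21.8% and 59.8%.

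Natural killer T cells carry an invariant alpha chain that joins Trav11 to Traj18. Trav11 held 1 UMI, Trav11n 2 and Trav11d 0, so none was a member. Traj18 was seen in 9 cells and Traj33, used by mucosal-associated invariant T cells, in 0, which allows up to 0.0828% of cells with a UMI. Of the 9 Traj18 cells 1 (11.1%, 0.281 to 48.3%) had a UMI of Zbtb16, the transcription factor of such innate-like cells, against 32 of 4444 other cells. The other innate-like markers listed did not go together. Klrb1c, Klrd1 and Xcl1 were each in 1 of the 9 cells and Cxcr6 in 2, but Tbx21, Ly6c2, Klrk1 and Cd160 in 0. Il2rb, Gata3 and Slamf6 were in 33.3%, 33.3% and 44.4%, near the 27.6%, 36.5% and 43.5% of other cells. The identity of these 9 cells was not tested. Joining segments were read rarely: the 60 Traj genes held 36 UMIs, 10 of them of Traj18, and the 14 Trbj genes 10. With a Trav UMI in 33.7% of cells and so few Traj UMIs, the share of cells with this chain could not be measured.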

How the data were processed

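Single-cell 3' RNA and hashtag libraries of 1 pooled capture were analysed from the deposited matrix of raw UMI counts. Per the submitters' processing notes, the authors used Cell Ranger 6.0.1 and the mm10 (GRCm38) build; settings for alignment and for reads with several matches were not given in the sources used here. Genotypes follow the hashtag feature names, because the antibody numbers in the labels' protocols differ from those names. Barcodes were kept at 500 or more detected genes and a mitochondrial share of UMIs of 10% or less. A genotype needed at least 10 hashtag counts with at least 80% from 1 hashtag, and other cells with at least 10 counts were taken as carrying both. A segment was detected at 1 UMI, and the Foxp3 and Il2ra classes at 1 UMI. Thinning drew 3000 UMIs per cell. CPM ratios have exact conditional binomial intervals, levels exact Poisson and shares exact Clopper-Pearson intervals, at 95%. In counts simulated for the genotype comparison (10709 genes), the interval of unchanged genes held the true ratio in 95.2% of them. These counts were drawn as independent Poisson sums, so the value checks the calculation only. It does not cover UMIs that share a cell or differences between mice. No doublet caller was run. Positions come from the RefSeq table of GRCm38.p6, in which all 166 genes were found by name. The genes and gene lists were chosen with earlier results of these data known. Genes named are the constant genes, the 12 Trbv and 12 Trav segments with the most single-segment cells, segments with at least 50 UMIs and a ratio of at least 1.5 in a comparison, those nearest the minimum of 10 UMIs, the 10 most frequent Trbv pairs, and list members; the subgroups and segments at or near equal were chosen after their values were seen. Analyses used Python 3.11.15, numpy 2.4.6, scipy 1.17.1, pandas 2.3.3 and matplotlib 3.10.9. The alternatives tried are given in the closing section.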

Additional observations from a re-analysis of the deposited data

Results flagged for a closer look

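For 2 segments the ratio of cells with a Foxp3 UMI over cells without passed 1.5 in opposite directions in the 2 mice. Trbv13-1 stood at -0.63 (-1.82 to 0.38) on the log2 scale in the Lta-/- mouse and at 0.77 (-0.20 to 1.66) in the Foxp3eGFP mouse. Trbv26 stood at -0.84 (-2.79 to 0.65) in the Lta-/- mouse and at 0.63 (-0.65 to 1.78) in the Foxp3eGFP mouse. All 4 intervals include 0, and the difference between the mice was not tested.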

How the results depend on the processing

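Over 116 results and 19 alternatives, 1029 values were recomputed: 935 stayed within the interval of the reported value, or for counts within 1.5 times, 94 moved beyond it and 0 called ratios turned direction. The total is dominated by 795 values for single segments or the Trav14 subgroup, many with wide intervals, of which 767 stayed. Of the 234 values for the main results only 168 stayed. No paired analysis was possible because each genotype is 1 mouse and the labels carry no replicate numbers. At 3000 UMIs per cell, detection was 23.2% (Trbv) and 20.6% (Trav), 3 segments were higher by genotype, 0 were higher and 2 lower with Foxp3, and 4 were lower with Il2ra. Cells with 2 segments were then 1.52% (Trbv) and 1.79% (Trav), or 26.8% and 38.3% of those with at least 2 V UMIs, 46.2% for Trav with both hashtags. Trac by genotype was -0.017, Trbc2 was -0.36 for both over neither and -0.29 with Il2ra, cells with both beta constant genes were 59.2%, and those with at least 50% Trbc1 32.7%. Trav14-3 with Foxp3 gave no ratio there, with 0 UMIs in 1 class. A segment at 2 UMIs gave detection of 11.4% and 8.74%, 2 segments in 0.270% and 0.247% of cells, 1.90% and 2.00% (1.996) of those with at least 2 V UMIs, and 3.28% and 3.92% with both hashtags. Trav11 at 2 UMIs was in 0 cells. Trbv2 made up 30.3% of Trbv UMIs. With no UMI minimum, 14 segments were higher and 18 lower by genotype, 13 and 29 with Foxp3, and 6 and 29 with Il2ra. At a minimum of 100 UMIs, 1 was higher and 3 lower with Foxp3, and 4 lower with Il2ra. At a hashtag share of 95%, 3 were higher by genotype. Counted in cells, 2 were higher by genotype and 1 with Foxp3. Within the Lta-/- mouse, 1 was higher and 3 lower with Foxp3 and 5 lower with Il2ra, and within the Foxp3eGFP mouse 5 were higher and 2 lower with Foxp3. With classes at 2 UMIs, 10 were lower with Foxp3, Trac and Trbc2 stood at -0.71 and -0.46 for both over neither, Trac at -0.44 with Foxp3, and Trac, Trbc1 and Trbc2 at -0.46, -0.55 and -0.26 with Il2ra. Leaving out ribosomal and mitochondrial UMIs gave Trbc1 and Trbc2 -0.51 and -0.24 for both over neither, -0.23 and -0.11 with Foxp3, and Trbc2 -0.19 with Il2ra. With 1 subgroup counted as 1 segment, 43.2% of cells with at least 2 Trav UMIs had 2.

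The next 3 alternatives were chosen after seeing the data. Without cells with a Mki67 UMI, 2 segments were higher by genotype and 1 with Foxp3, Trac was -0.45 for both over neither, and Trac and Trbc2 were -0.28 and -0.26 with Il2ra. Without cells with B, plasma or myeloid UMIs, Trac was -0.40 with Foxp3 and Trbc2 -0.25 with Il2ra. Relative to the UMIs of the same chain, 2 segments were higher by genotype, and 1 was higher and 5 lower with Il2ra. The causes of these moves were not tested.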

Other observations

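Some cells carried transcripts of the other receptor. A UMI of Trdc, the constant gene of the delta chain, was present in 109 of 2244 Lta-/- cells (4.86%) and 139 of 2209 Foxp3eGFP cells (6.29%). It was also present in 3 of the 13 cells with B cell, plasma cell or myeloid markers and no Cd3 UMI. At a higher cut, at least 3 Trdc UMIs were held by 50 assigned cells (median 9265 UMIs), 20 of the Lta-/- mouse and 30 of the Foxp3eGFP mouse. Of these 46.0% (31.8 to 60.7%) had a Trbv UMI and 22.0% (11.5 to 36.0%) a Trav UMI. After thinning, 22.0% (11.5 to 36.0%) had a Trbv UMI, against 23.2% of all assigned cells, and 6.00% (1.26 to 16.6%) a Trav UMI, against 20.6%, with intervals that did not overlap for Trav. Trbc2 was detected in 49 of the 50.

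V detection also differed between cells with markers of recent selection and of the cell cycle. At 3000 UMIs per cell a Trbv UMI was found in 27.6% (24.9 to 30.4%) of cells with a Ccr9 UMI, in 27.0% (21.0 to 33.6%) of cells with Dntt, which adds nucleotides at V joints, and in 19.5% (15.7 to 23.9%) of cells with Mki67. As deposited, the Mki67 cells had the highest of these shares, 50.9%, at a median of 13443 UMIs per cell. After thinning, the intervals of the Ccr9 and Mki67 cells did not overlap, whereas that of the Dntt cells overlapped both.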
